A study of Homo sapiens with 2 samples.

Results

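The 42 genes described here act in the G2 and M phases of the cell cycle. They were taken by symbol from a list that was chosen with earlier results of these data known, and all 42 were found among the 19198 genes measured. The libraries are labelled as A549, a long-established line from a human lung adenocarcinoma used as a model of non-small-cell lung cancer (NSCLC), but the marker genes given below go against that label. The library labelled A549-NICD1 is from cells overexpressing NICD1, which is the intracellular domain released from the NOTCH1 receptor on activation. The library labelled A549-Vector is the vector control. With only 1 library for either condition, nothing below could be checked against replicates and no p-value is given. The methods of the study describe NICD1 cloned into pSin-EF2 lentiviral vectors, and the sources used here do not say whether either culture was a clone or a pool.

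Cells enter mitosis when cyclin B and CDK1 form an active kinase, which the CDC25 phosphatases switch on. Mitotic kinases then build the spindle, kinetochores couple chromosomes to its microtubules, and the spindle assembly checkpoint holds the cell until every kinetochore is attached. The anaphase-promoting complex (APC/C) afterwards marks cyclin B and securin for destruction, the chromatids separate and the cell divides. Transcripts of these genes are made together late in the cycle, so that in an asynchronous culture their level is widely read as a sign of proliferation. In bulk RNA, fewer cells in mitosis and less RNA per mitotic cell cannot be told apart.

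Values were treated as FPKM, that is, reads divided by gene length and by sequencing depth, a unit read from the values because it is not named. Levels are set side by side between genes on that reading only, since the annotation behind the gene lengths is not given. The log2 ratio is A549-NICD1 over A549-Vector after a scaling that divided the A549-NICD1 values by 0.958, which adds 0.06 to each log2 ratio. Worked out from the values themselves, the depth of A549-Vector was 48602848 reads and that of A549-NICD1 was 48528434. Bracketed ranges are 95% Clopper-Pearson intervals of the log2 ratio on the fewest reads that fit the values. They cover counting error only, because PCR copies of a molecule cannot be told from separate molecules here, and they hold no variation between cultures. Differences are described against a fold of 1.2 and a fold of 1.5. As a check of the labels, NOTCH1 was at 5.40 FPKM in A549-Vector against 2865 FPKM in A549-NICD1. RFC4, a replication factor C subunit, was at 39.5 and 4075 FPKM, and went from rank 2097 to rank 1. The labels name NICD1 only, so RFC4 is no check of them. What the level of RFC4 has to do with the mitotic genes was not tested. The cell type was checked too, and the markers went against the A549 label. Of 15 genes listed as A549 or airway markers, 10 were under 1 FPKM in both libraries, and KRT7, KRT19, FGA and FGB were listed at 0 in both. Their summed level was 19.5 FPKM in both libraries. Of 7 genes listed as markers of HEK293 cells, a human embryonic kidney line, 6 were at 1 FPKM or more in both, with a summed level of 235.7 FPKM in A549-Vector and 223.1 in A549-NICD1. CDKN2A, which A549 cells are known to have lost by homozygous deletion, was at 139.1 FPKM in A549-Vector against 137.7 FPKM in A549-NICD1. The names A549-Vector and A549-NICD1 are used below as labels only, and no value below is taken as one of lung cancer cells. What these markers have to do with the levels of the mitotic genes was not tested.

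The mitotic genes were abundant in both libraries and close to each other between them. All 42 were above 10 FPKM in both, from 12.5 FPKM for CENPE to 140.1 FPKM for TOP2A in A549-Vector and from 11.6 FPKM for CDC25C to 121 FPKM for CDC20 in A549-NICD1. Each ranked within the top 33.5% of genes in each library. Their FPKM values added up to 2442 in A549-Vector and 2314 in A549-NICD1, which was 0.633% and 0.603% of the sum over all genes. The sum of A549-NICD1 includes NOTCH1 at 2865 FPKM and RFC4 at 4075 FPKM, which lowers the share of the other genes there. The median log2 ratio of the 42 genes was -0.01, beside 0.00 for the 12263 genes with a mean of at least 1 FPKM. A total of 20 of the 42 genes were higher in A549-NICD1, or 47.6%, where 50.2% of all genes were, and 22 were lower. Without further scaling this split was 13 higher and 29 lower, with 36.7% of all genes higher. With the scaling, 57.0% of the 5551 genes with means between those of the lowest and the highest mitotic gene were higher. The median log2 ratio of these 5551 genes was 0.03, so the mitotic genes lay slightly below genes of like level.

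The spread of the mitotic genes around 0 was narrow. A total of 38 of 42, or 90.5%, differed by less than 1.2-fold, as did 78.4% of all genes. Because all of the mitotic genes are well expressed, genes of like level make a closer reference, and 88.6% of the 5551 genes with means between those of the lowest and the highest mitotic gene differed by less than 1.2-fold. The share of the mitotic genes lay near this background. CENPE alone was higher by 1.2-fold or more, or 2.38% of the 42, beside 9.44% of all genes. CENPA, CDC25C and MKI67 were lower by 1.2-fold or more, or 7.14%, beside 12.1% of all genes. Of the 5551 genes of like level, 383 were higher and 250 were lower by 1.2-fold or more. Both are smaller shares than among all genes. Beside genes of like level, the 7.14% on the lower side is thus the larger share, but it rests on CENPA, CDC25C and MKI67 alone. Past 1.5-fold in either direction there was again CENPE alone, beside 4.26% of all genes, or 1.97% on the higher side. The order of the genes by level was also close in both libraries, with a Spearman's rho of 0.983 across the 42 genes, which share both libraries and are not replicates.

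**Figure D1:**
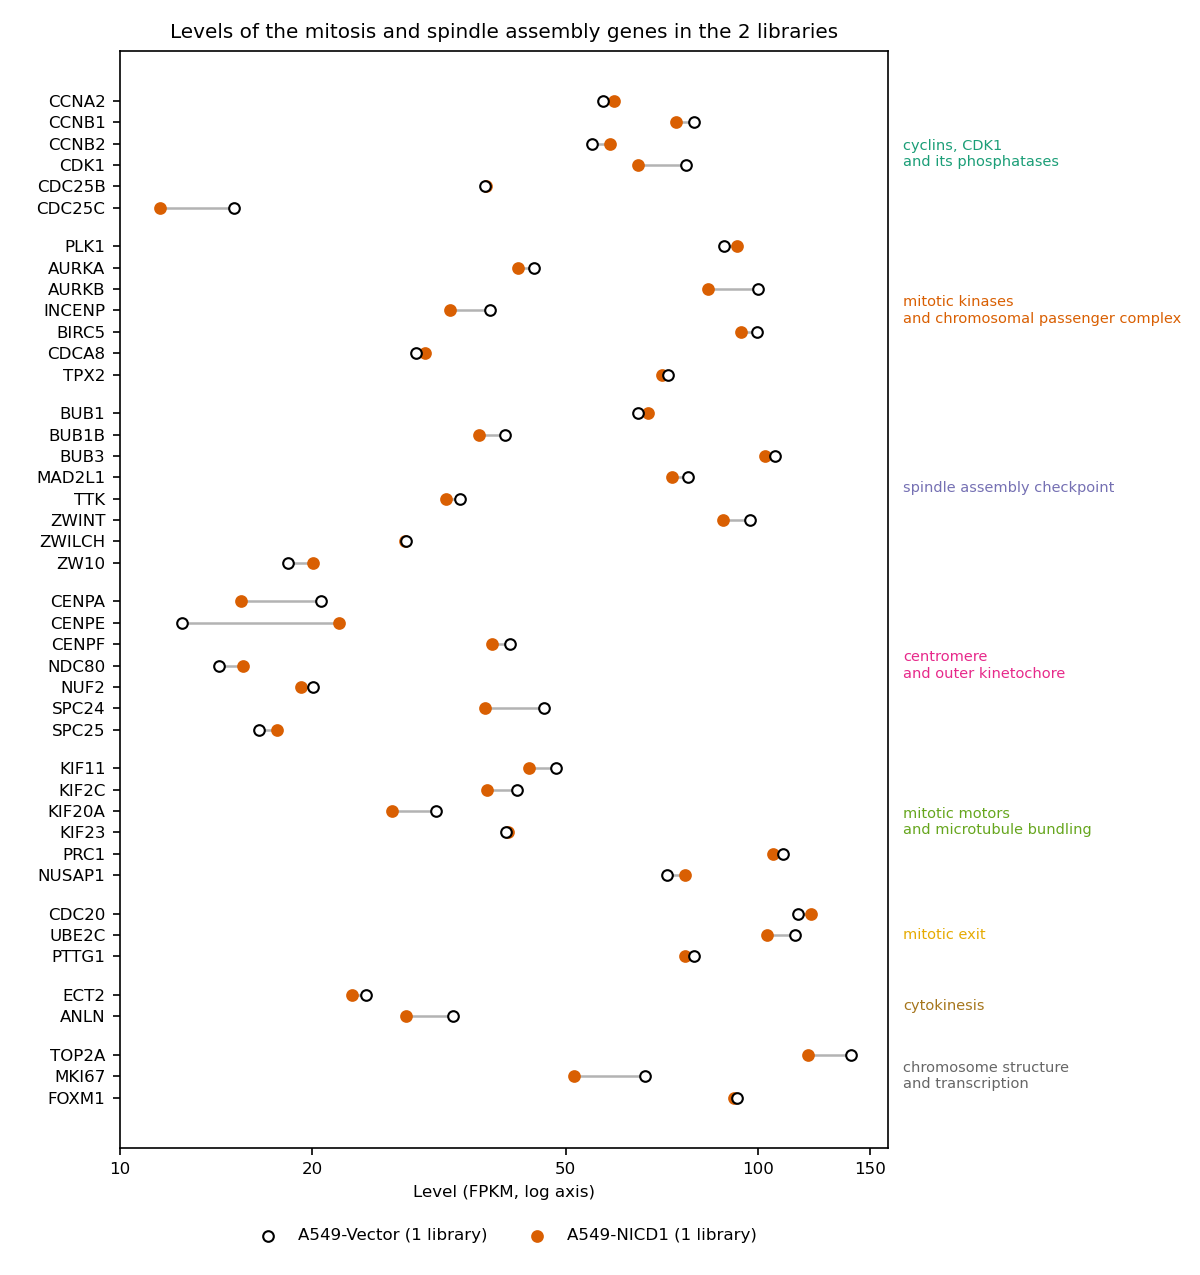
Level of each of the 42 mitotic genes in FPKM on a log axis, with A549-Vector as open circles and A549-NICD1 as filled circles (1 library each), grouped by role. The widest gap is that of CENPE, with 12.5 FPKM in A549-Vector against 22.1 FPKM in A549-NICD1.

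Genes of this kind often carry a CHR element (cell cycle genes homology region) near their transcription start, which the MuvB core of the DREAM complex binds, and one or more CCAAT boxes upstream of it. In the RefSeq promoters of GRCh38.p14, 250 bases before to 50 bases after each start, 35 of the 42 genes were matched, 7 of them with several starts. The letters TTTGAA or TTCGAA, on either strand and taken here as a CHR, were found for 26 of these 35 genes, or 74.3%, and for 17.4% of the 14514 genes of the files that were matched. CCAAT on either strand was found for 29 of 35, or 82.9%, beside 42.3% of all. A CHR together with CCAAT was found for 62.9%, beside 9.05%. The letters GTGGGAA, which RBPJ, the DNA-binding partner of NICD1, recognises, were found for 2 of 35, CDC25C and ZWINT, or 5.71%, beside 7.78% of all. The median log2 ratio was -0.01 over the 26 genes with the CHR letters and -0.03 over the 9 matched genes without them, CENPE among the latter, with genes on both sides of 0 in either set. A match of letters is a description and not a bound site. Other forms of the element were not searched, so a gene without these letters, such as CENPE, is not shown to lack a CHR. The 150 bases before the start are shown for PLK1 and CCNB2, which have the letters and log2 ratios of 0.13 and 0.15, for the 3 genes past 1.2-fold on the lower side, which have them too, and for CENPE, which has none of the searched letters in its whole window. Capitals mark CHR letters and CCAAT, read as ATTGG on the other strand, and in MKI67 the CHR nearest the start overlaps an ATTGG. For CDC25C, which has 4 starts, the one with a CHR before it is shown. The positions are chr16:23678739-23678888 (plus strand), chr15:59104996-59105145 (plus strand), chr10:128126424-128126573 (minus strand), chr2:26785906-26786055 (plus strand), chr5:138331805-138331954 (minus strand) and chr4:103198344-103198493 (minus strand), in the order of the lines.
PLK1: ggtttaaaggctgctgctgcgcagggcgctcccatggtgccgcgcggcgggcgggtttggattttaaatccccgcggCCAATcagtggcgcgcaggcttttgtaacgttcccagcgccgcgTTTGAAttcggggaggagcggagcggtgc
CCNB2: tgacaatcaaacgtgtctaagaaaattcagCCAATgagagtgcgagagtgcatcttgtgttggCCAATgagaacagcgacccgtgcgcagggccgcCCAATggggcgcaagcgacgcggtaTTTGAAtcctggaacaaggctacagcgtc
MKI67: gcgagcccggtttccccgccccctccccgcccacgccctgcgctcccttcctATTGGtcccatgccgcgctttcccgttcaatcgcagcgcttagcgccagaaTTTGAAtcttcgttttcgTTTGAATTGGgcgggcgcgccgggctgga
CENPA: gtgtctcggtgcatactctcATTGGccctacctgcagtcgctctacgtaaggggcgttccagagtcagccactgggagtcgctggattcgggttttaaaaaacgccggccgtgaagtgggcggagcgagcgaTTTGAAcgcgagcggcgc
CDC25C: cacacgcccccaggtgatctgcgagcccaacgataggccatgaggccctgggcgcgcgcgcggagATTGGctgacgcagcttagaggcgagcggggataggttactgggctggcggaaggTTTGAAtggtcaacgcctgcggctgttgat
CENPE: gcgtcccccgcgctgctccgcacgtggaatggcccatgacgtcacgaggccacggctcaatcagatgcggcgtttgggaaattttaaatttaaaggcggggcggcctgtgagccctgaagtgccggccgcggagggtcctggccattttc

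The cyclins and CDK1, which drive entry into mitosis, all differed by less than 1.2-fold, with ratios in both directions. CCNA2, the cyclin of S and G2 phase, was at 57.3 FPKM in A549-Vector against 59.5 FPKM in A549-NICD1, a log2 ratio of 0.12 (0.05 to 0.18). CCNB2 was at 55.0 and 58.6 FPKM, a log2 ratio of 0.15. CCNB1, the main mitotic cyclin, was at 79.4 and 74.4 FPKM, a log2 ratio of -0.03 (-0.08 to 0.01). Their kinase CDK1 was at 77.2 and 64.9 FPKM, a log2 ratio of -0.19, which is past the ratio of any cyclin but under 1.2-fold. The fewest reads that fit CDK1 are 454 and 381, so its interval of -0.39 to 0.01 is the widest that counting allows. Levels of CCNB1 and CDK1 were thus close, with 1.03 CCNB1 to 1 CDK1 in A549-Vector and 1.15 to 1 in A549-NICD1. Of the phosphatases that remove the inhibitory phosphates of CDK1, CDC25B was at 37.4 and 37.5 FPKM, and CDC25C was at 15.1 and 11.6 FPKM. CDC25C had a log2 ratio of -0.32 (-0.43 to -0.21), and was the lowest of these 6 genes. Of the exon bases of CDC25C, 8.78% lie opposite FAM53C, which was at 35.2 and 40.2 FPKM. The study describes its sequencing as strand-specific, which would keep the reads of these genes apart if the counting used strand, and the strand option of the counting is not given in the sources used here.

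Among the kinases, PLK1, which acts from mitotic entry to cytokinesis, was at 88.5 FPKM in A549-Vector against 92.9 FPKM in A549-NICD1, a log2 ratio of 0.13 (0.09 to 0.17). AURKA, the kinase of the spindle poles, was at 44.6 and 42.1 FPKM. Its activator TPX2 was at 72.2 and 70.7 FPKM. The chromosomal passenger complex corrects faulty attachments and consists of the kinase AURKB and of INCENP, BIRC5 (survivin) and CDCA8 (borealin). AURKB was at 100.1 and 83.5 FPKM, a log2 ratio of -0.20 (-0.25 to -0.15), and INCENP, which activates AURKB, was at 38.0 and 32.9 FPKM, a log2 ratio of -0.14 (-0.19 to -0.10). BIRC5 was at 99.9 and 94.2 FPKM, a log2 ratio of -0.02, and CDCA8 was at 29.1 and 30.1 FPKM, a log2 ratio of 0.11 (0.04 to 0.18). The 4 transcripts of this complex were unequal in both libraries, the highest being 3.44 times the lowest in A549-Vector and 3.13 times in A549-NICD1. All remained within 1.2-fold between the libraries.

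Of the 8 spindle assembly checkpoint genes, none reached 1.2-fold, and their log2 ratios ran from -0.08 for ZWINT to 0.19 for ZW10. TTK (MPS1), the kinase that starts the checkpoint signal, was at 34.1 FPKM in A549-Vector against 32.5 FPKM in A549-NICD1. BUB1 was at 64.9 and 67.3 FPKM, a log2 ratio of 0.11 (0.08 to 0.15), and its partner BUB3 was at 106.5 and 102.6 FPKM. MAD2L1 and BUB1B (BUBR1) are parts of the inhibitor that holds back CDC20. MAD2L1 was at 77.8 and 73.3 FPKM, and BUB1B was at 40.2 and 36.5 FPKM, a log2 ratio of -0.08 (-0.12 to -0.03). ZW10 and ZWILCH belong to the complex that brings dynein and the MAD proteins to kinetochores, and ZWINT links that complex to them. ZW10 was at 18.3 and 20.04 FPKM, a log2 ratio of 0.19 (0.11 to 0.27), ZWILCH was at 28.0 FPKM in both, and ZWINT was at 97.4 and 88.1 FPKM. Of the exon bases of ZWILCH, 3.26% lie opposite RPL4, a ribosomal protein gene at 1547 and 1544 FPKM.

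Among the 42 genes, the widest difference in each direction belonged to the centromere and the outer kinetochore. CENPE, a kinesin motor that carries chromosomes to the spindle equator, was at 12.5 FPKM in A549-Vector against 22.1 FPKM in A549-NICD1. This was a log2 ratio of 0.88 (0.83 to 0.93) on at least 5126 and 9027 reads, or 1.83-fold, and moved CENPE from rank 6280 to rank 3834 of 19198. Of 7122 genes with a mean of at least 10 FPKM, 34, or 0.477%, were higher by at least as much. Over all settings tried the log2 ratio of CENPE lay between 0.81 and 0.88. CENPF, also a large kinetochore protein of late cycle, was at 40.9 and 38.3 FPKM, so that the level of CENPE relative to CENPF went from 0.306 to 0.576. No exon of CENPE overlaps another annotated gene, and none of its 171 windows of 100 bases occurs in a transcript of another gene. Its longest coding transcript has 35.3% GC, the lowest among the 42 genes. Over the 42 genes the log2 ratio and the GC content had a Pearson's r of -0.23 and a Spearman's rho of -0.13, and r was -0.08 over the 41 genes without CENPE. The 10 nearest measured genes around CENPE on chromosome 4, 5 on each side that passed the filter, picked after its value was seen, had log2 ratios from -0.62 for CXXC4 to 0.25 for SLC9B2.

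CENPA, the histone H3 variant that marks the centromere, lay furthest on the other side. It was at 20.7 FPKM in A549-Vector against 15.5 FPKM in A549-NICD1, a log2 ratio of -0.35 (-0.47 to -0.24) on at least 1399 and 1046 reads. Of its exon bases, 6.96% are shared with SLC35F6 on the same strand, which was at 15.3 and 16.6 FPKM. The NDC80 complex, the main microtubule coupler of the kinetochore, had ratios in both directions, all under 1.2-fold with the reported scaling. Its subunit NDC80 was at 14.3 and 15.6 FPKM, a log2 ratio of 0.19 (0.09 to 0.29), NUF2 was at 20.04 and 19.2 FPKM, and SPC25 was at 16.5 and 17.6 FPKM, a log2 ratio of 0.16 (0.04 to 0.28). SPC24, the partner of SPC25, was at 46.2 and 37.3 FPKM, a log2 ratio of -0.25 (-0.32 to -0.18). SPC24 had the highest level of the 4 subunits in both libraries, 3.23 times that of NDC80 in A549-Vector and 2.39 times in A549-NICD1.

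Genes of the spindle midzone and of the motors differed little. KIF11 (Eg5), the motor that pushes the spindle poles apart, was at 48.3 FPKM in A549-Vector against 43.8 FPKM in A549-NICD1, a log2 ratio of -0.08 (-0.12 to -0.04). KIF2C, which takes microtubules apart at the centromere, was at 41.8 and 37.6 FPKM, a log2 ratio of -0.09. KIF20A (MKLP2), which brings the passenger complex to the midzone, was at 31.3 and 26.7 FPKM, a log2 ratio of -0.17 (-0.22 to -0.11). KIF23 (MKLP1) was at 40.3 and 40.6 FPKM, and PRC1, which bundles the midzone microtubules, was at 109.5 and 105.8 FPKM. NUSAP1, a microtubule-binding protein of the spindle, was at 72.1 and 77.0 FPKM, a log2 ratio of 0.16 (0.12 to 0.20). Reads of PRC1 and NUSAP1 are less certain, since 61.3% and 61.7% of their windows also occur in a neighbouring read-through transcript that has no value of its own in the files. ECT2, the exchange factor that switches on RhoA for cytokinesis, was at 24.3 and 23.1 FPKM. ANLN (anillin), the scaffold of the contractile ring, was at 33.2 and 28.1 FPKM, a log2 ratio of -0.18 (-0.23 to -0.13).

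Genes of mitotic exit were among the most abundant. CDC20, the activator of APC/C and the target of the checkpoint, was at 115.8 FPKM in A549-Vector against 121 FPKM in A549-NICD1, a log2 ratio of 0.13 (0.09 to 0.17). UBE2C, the ubiquitin-conjugating enzyme that works with APC/C, was at 114.4 and 103.3 FPKM, a log2 ratio of -0.09 (-0.15 to -0.02). PTTG1 (securin), the inhibitor of separase that APC/C destroys, was at 79.4 and 76.9 FPKM. PTTG2, a retrocopy of PTTG1, was at 0.0357 and 0.215 FPKM on as few as 1 and 6 reads.

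MKI67 and TOP2A, both widely used to mark dividing cells, were lower in A549-NICD1, TOP2A by less than 1.2-fold. Of all 42 genes, 20 were higher and 22 lower, so MKI67 and TOP2A do not stand for the group. FOXM1, the transcription factor of the group, was near equal. MKI67, which encodes the proliferation marker Ki-67, was at 66.4 FPKM in A549-Vector against 51.4 FPKM in A549-NICD1, a log2 ratio of -0.31 (-0.33 to -0.29) on at least 38612 and 29839 reads. TOP2A, the topoisomerase that untangles sister chromatids, was at 140.1 and 119.9 FPKM, a log2 ratio of -0.16 (-0.18 to -0.14). Of 7122 genes with a mean of at least 10 FPKM, 3.69% were lower by as much as MKI67 and 12.1% by as much as TOP2A. FOXM1, which activates many G2 and M phase genes, was at 92.8 and 91.7 FPKM, a log2 ratio of 0.04 (0.01 to 0.08) that was below 0 without further scaling. 

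**Figure D2:**
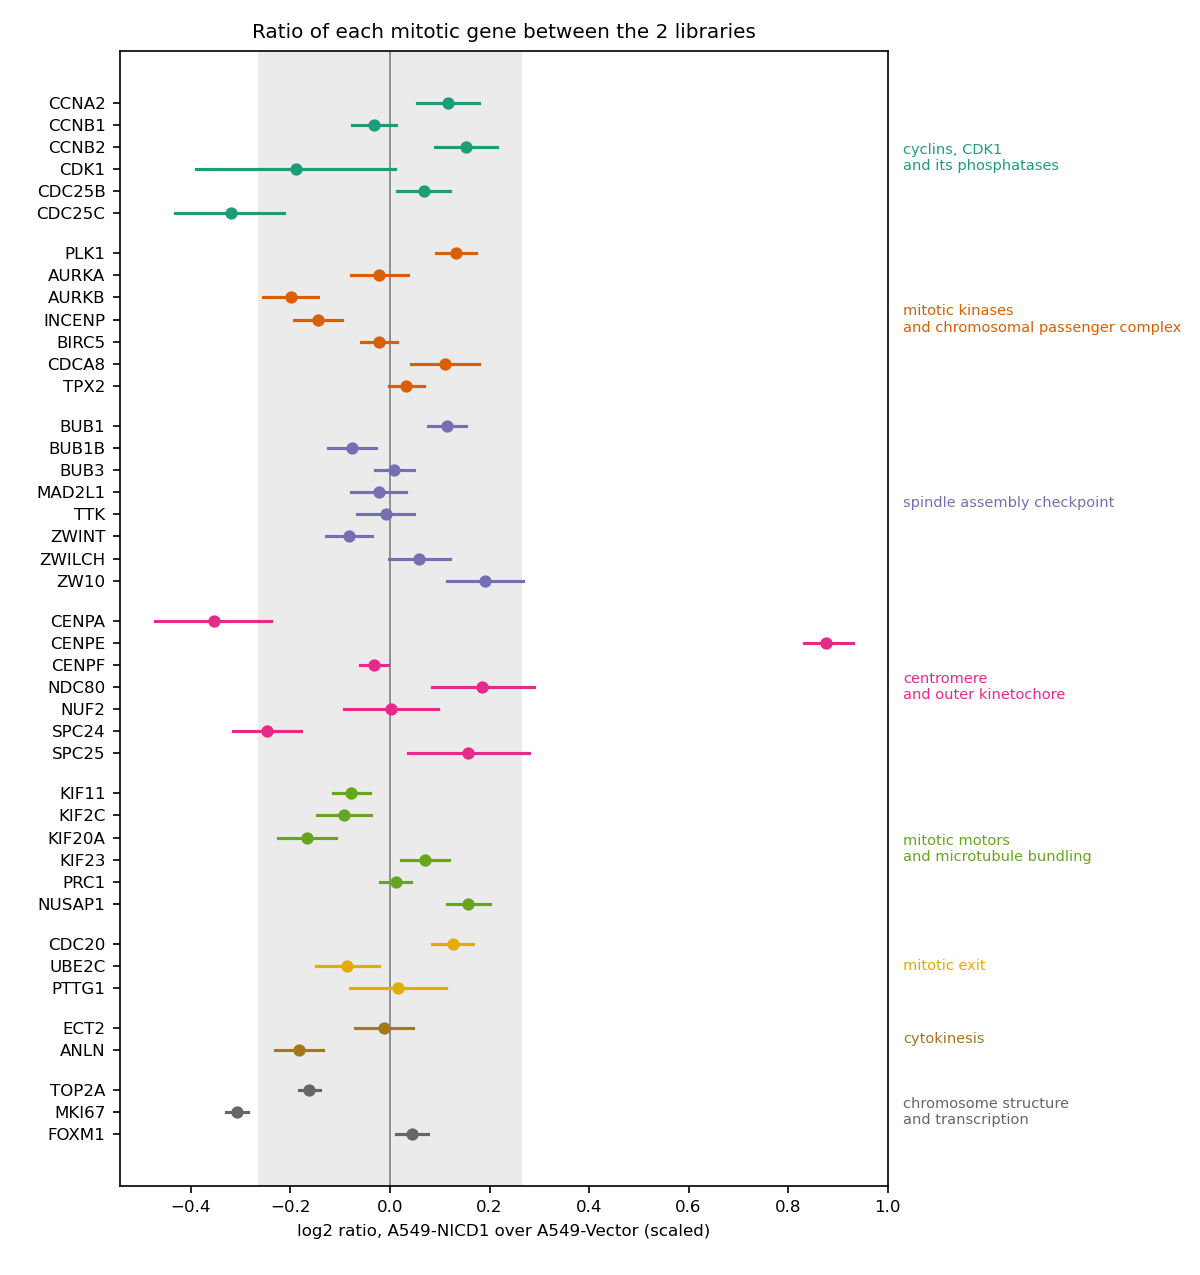
Log2 ratio of A549-NICD1 over A549-Vector for each of the 42 genes (points) with its 95% counting interval (lines), grouped and coloured by role, with the range under 1.2-fold in grey. CENPE at 0.88 lies far to the right, and CENPA, CDC25C and MKI67 lie left of the grey range. Points of TPX2, BUB3, ZWILCH, NUF2, PRC1, PTTG1 and FOXM1 are so near 0 that their side depends on the scaling.

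**Figure D3:**
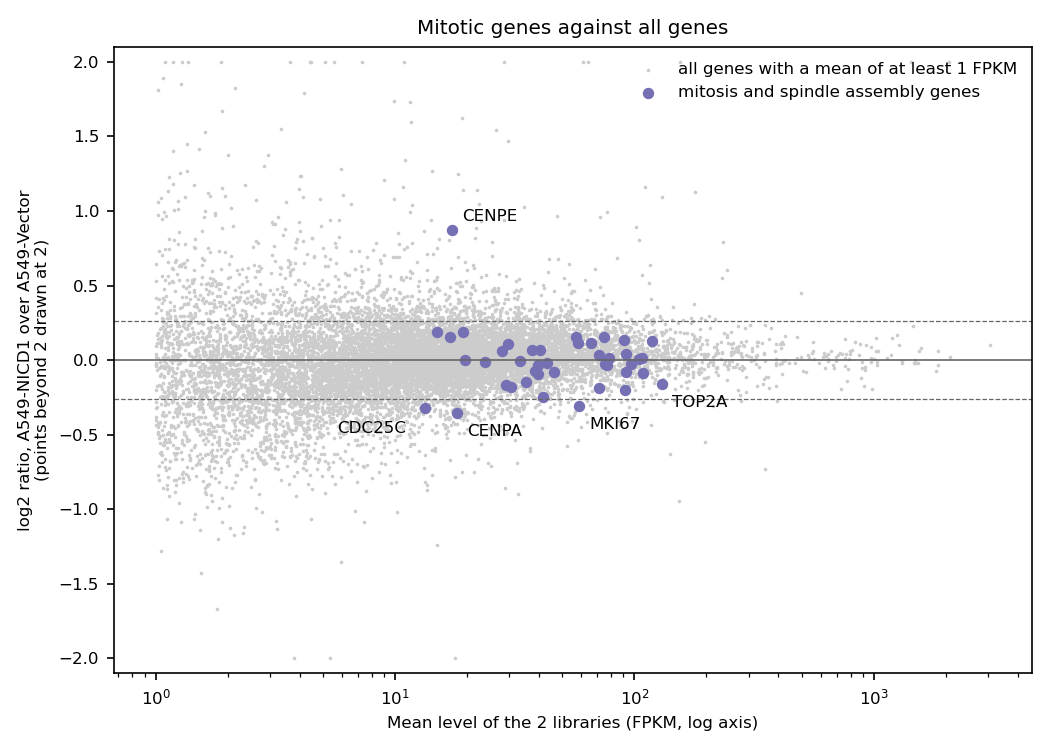
Log2 ratio against the mean level in FPKM (log axis) for the 12263 genes with a mean of at least 1 FPKM (grey) and the 42 mitotic genes (purple), with dashed lines at 1.2-fold. Of the mitotic genes, CENPE lies above the upper line and CDC25C, CENPA and MKI67 lie below the lower one; points past 2 are drawn at 2.

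Other genes of mitosis were taken from 7 lists, drawn up from general knowledge but with earlier results of these data known. The lists hold 118 genes in all, and all 118 passed the filter. Their median log2 ratio was 0.01. A total of 5 of the 118 were higher by 1.2-fold or more, beside 9.44% of all genes, and 1 was lower, beside 12.1% of all genes. Of the 5551 genes with means in the range of the 42 mitotic genes, 383 were higher and 250 lower by as much. Both are smaller shares than among all genes. The gene of the 118 that was lower by 1.2-fold or more is HAUS4 of the augmin complex, at 17.02 FPKM in A549-Vector against 13.4 FPKM in A549-NICD1. WEE1, the kinase that holds CDK1 inactive, was the highest of them, at 17.3 and 25.4 FPKM, a log2 ratio of 0.62 (0.55 to 0.69). It was the only gene of these lists past 1.5-fold. Of the other 4 genes past 1.2-fold on the higher side, CDC25A and E2F4 were named after their values were seen. CDC25A, the CDC25 phosphatase that also acts at the start of S phase, was at 42.9 and 50.2 FPKM, KIF20B, a kinesin of cytokinesis, at 23.1 and 27.1 FPKM, LIN37, a part of the MuvB core, at 6.83 and 8.64 FPKM, and E2F4, which binds DNA in the DREAM complex, at 40.6 and 48.2 FPKM.

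By list, none of the 17 APC/C genes, 24 genes of the constitutive centromere network and MIS12 complex, 8 condensin genes or 12 cohesin genes reached 1.2-fold. The medians of these 4 lists were 0.03, -0.03, -0.09 and 0.01, and without further scaling those of APC/C and cohesin were -0.03 and -0.05. Condensin, which compacts the mitotic chromosomes, had 6 of 8 genes lower, where 50.2% of all genes were higher and 36.7% without further scaling. They went down to -0.21 for NCAPD2, at 87.2 and 72.4 FPKM. CKS2, a small subunit of the CDK complex, was the lowest of the 10 CDK1 regulators, at 129.4 and 105.5 FPKM, a log2 ratio of -0.23. For 21 genes of the step from G1 to S phase the median log2 ratio was 0.05, and -0.01 without further scaling. In that list 3 of 21 genes were higher by 1.2-fold or more and none was lower, beside 9.44% and 12.1% of all genes. Of the 5551 genes with means in the range of the mitotic genes, 383 were higher and 250 lower. The share of higher genes in the list is larger than either, but it rests on 3 genes. These 3 are GMNN (geminin), which blocks relicensing of origins, at 97.3 and 133.2 FPKM, its target CDT1 at 61.1 and 76.5 FPKM, and the licensing factor CDC6 at 59.3 and 68.4 FPKM. CDT1 and CDC6 were named after their values were seen.

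**Figure D4:**
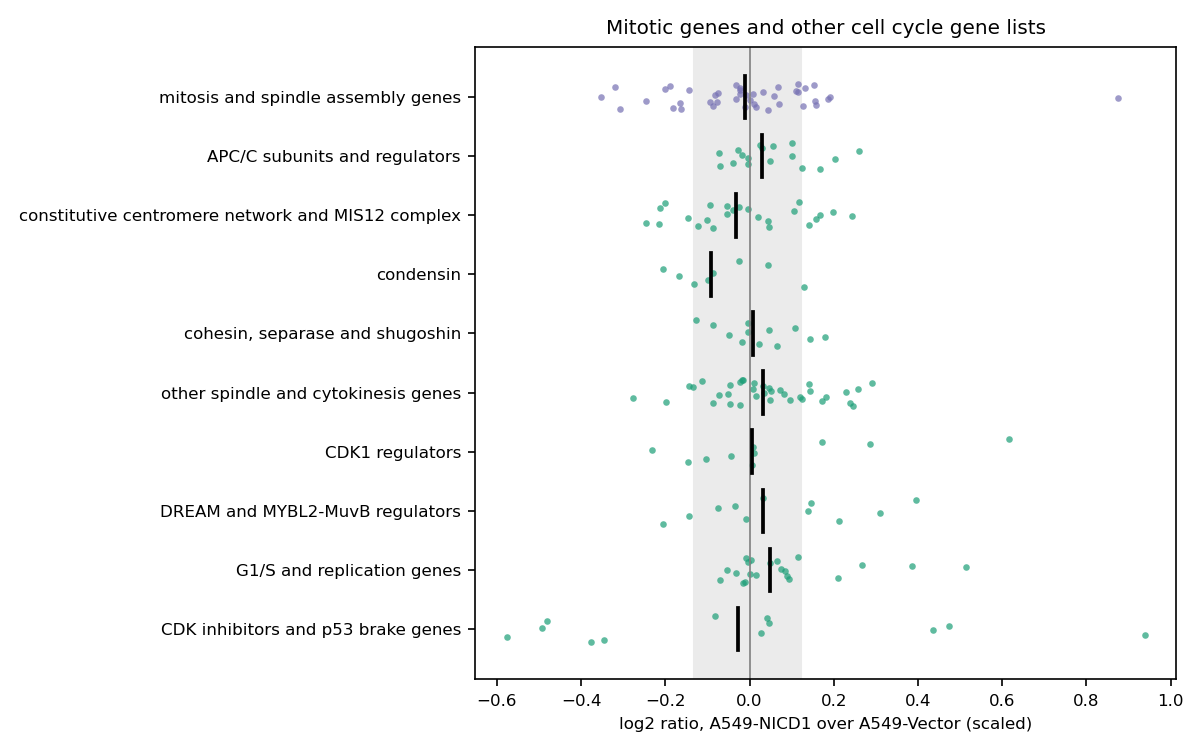
Log2 ratio of A549-NICD1 over A549-Vector for the genes of each list (points) with the list's median (black bar), and the middle range of all genes from the lower to the upper quartile in grey. The medians of all 10 lists lie inside the grey range of -0.13 to 0.12, and the genes farthest from 0 are GADD45A at 0.94 and CENPE at 0.88.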

How the data were processed

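mRNA from the cultures labelled A549-NICD1 and A549-Vector, 1 library each, was made into libraries with the NEBNext Ultra kit and sequenced. The authors deposited 1 value for each gene and library, which was treated as FPKM. The unit is not named in the files and was read from the values. The submitters' processing notes name Bowtie2, HTSeq and hg38. The study describes strand-specific sequencing of polyA RNA. Versions, annotation and the strand option of the counting are not given in the sources used here. Of 19225 rows, 27 with a date number as name were left out.

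Reads were recovered from the files alone. Genes with equal reads in both libraries gave the ratio of depths, and the depth was the whole number between 30000000 and 80000000 at which most of 120 gene lengths came out whole (84 in each library). At this depth 657 of 11831 gene lengths, or 5.55%, equalled a GENCODE 29 transcript length, and most did not. At 1/2, 1/3, 2 or 3 times this depth, fewer lengths did. For each gene the smallest length that made both values whole was used, so reads are the fewest possible, and 17177 of 17178 genes above 0 had one. Ratios do not depend on this choice.

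The log2 ratio was taken on FPKM plus 0.1, which understates the change of low genes, after the libraries were brought to one scale with the trimmed mean of log ratios (30% of ratios and 5% of levels at each end) over genes with a mean of at least 1 FPKM. No test was run. The 42 genes and all lists were chosen with earlier results of these data known. All 42 were named. Of each other list, the genes with the highest and lowest log2 ratio could be named, and not all of them are. Genes of the marker, paralog and CDK inhibitor lists could be named too, as could NOTCH1 and RFC4. Promoters are from RefSeq on GRCh38.p14, and exon overlaps and 100-base windows, every 50 bases, from GENCODE 29. The recovery, scaling and intervals were tested on simulated data. Alternatives covered scaling, pseudocount and filter. Python 3.11.15, pandas 2.3.3, numpy 2.4.6 and scipy 1.17.1 were used.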

Additional observations from a re-analysis of the deposited data

How the results depend on the processing

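No paired analysis was possible because a single library stood for either condition. The median log2 ratio of the 42 mitotic genes was -0.01 as reported, -0.0721 without further scaling, -0.0288 with scaling to the upper quartile, -0.0388 with scaling to the sum without NOTCH1 and RFC4, and -0.0333 with the scaling taken from genes with a mean of at least 10 FPKM. It lay between -0.0158 and -0.00989 with scaling to the median ratio, pseudocounts of 0.01 and 1 FPKM, no filter, and a pseudocount of 0.5 reads, which was added after the data were seen. The number of genes higher in A549-NICD1 went from 20 to 13 without further scaling. Over the 9 alternatives, 13 genes were higher and 22 lower in every one, and 7 near 0 changed side. CENPE stayed past 1.5-fold in all of them, and SPC24 passed 1.2-fold on the lower side in the same 4 settings that moved the median, which gave 4 genes there in place of 3. The lowest log2 ratio of CENPE was 0.81. No value of a single gene or list past 1.2-fold changed sign. Without replicates, depth bounds counting error alone. Differences of the mitotic and other listed genes between single cultures, whatever their size, cannot be assigned to NICD1.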

Other observations

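Genes that brake the cell cycle, most of them in G1, are inhibitors of cyclin-dependent kinases and a few targets of p53. Of 13 listed, 12 passed the filter, of which 3 were higher and 5 lower by 1.2-fold or more, beside 9.44% and 12.1% of all genes. Several of them are below 10 FPKM, unlike the mitotic genes, so the counts of the lists are not compared. GADD45A, a stress-induced gene that can hold cells in G2, was at 20.1 FPKM in A549-Vector against 37.0 FPKM in A549-NICD1, a log2 ratio of 0.94 (0.84 to 1.04). CDKN2B (p15) was at 4.15 and 5.56 FPKM and CDKN2D (p19) at 2.98 and 3.89 FPKM, the latter on as few as 23 and 30 reads. On the lower side, BTG2 was at 14.1 and 9.01 FPKM, a log2 ratio of -0.58 (-0.73 to -0.43). CDKN2C (p18) was at 34.1 and 23.2 FPKM, CDKN1C (p57) at 2.90 and 1.96 FPKM, and the atypical cyclins CCNG1 and CCNG2 at 88.2 and 66.5 FPKM and at 9.63 and 7.08 FPKM. CDKN1A (p21), the best known p53 target of this list, was at 9.81 and 8.86 FPKM, a log2 ratio of -0.08 (-0.40 to 0.24). CDKN2A (p16 and p14ARF) was the most abundant of the list at 139.1 and 137.7 FPKM, a log2 ratio of 0.05 (-0.01 to 0.11), although A549 cells are known to have lost this gene. CDKN1B (p27) was at 28.0 and 27.6 FPKM.

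Paralogs of the mitotic genes that belong to germ cells were low in both libraries. CCNB3 was at 0.504 FPKM in A549-Vector against 0.591 FPKM in A549-NICD1, CCNA1 at 0.205 and 0.552 FPKM, and AURKC at 1.08 and 0.658 FPKM. The fewest reads that fit are 70 and 82 for CCNB3, 19 and 51 for CCNA1, and 61 and 37 for AURKC. TOP2B, the isoform of TOP2A that does not depend on the cell cycle, was at 59.9 and 51.5 FPKM, a log2 ratio of -0.16, the same as that of TOP2A to 2 decimals.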
